A study of Bos taurus with 2 samples.

Results

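Interleukins and their receptors were examined in the testis of crossbred and Zebu bulls. The set held every probe on the array that was not a control and whose gene name is IL followed by a digit, receptors included. It comprised 77 genes, represented by 134 probes in 151 spots, out of 32429 gene names, 51282 probes and 61657 spots. Of the 77 genes, 41 encode ligands or antagonist ligands and 36 encode receptor chains, receptor-like proteins or a binding protein. By name, 40 genes had 1 probe and 37 had several, up to 5.

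The crossbred group consisted of Holstein Friesian crossbred bulls with 50 to 75% exotic inheritance, and the Zebu group of Tharparkar bulls. Both groups held 3 bulls aged 24 months, whose right testis was removed by unilateral castration. RNA of the 3 testes was pooled in equal amounts within each group, labelled with the dye Cy3 and hybridized to 1 array per group, on the same slide. With 1 array of pooled RNA a group, no difference below has a replicate check, no p-value is given, and differences between breeds cannot be told apart from differences between these bulls or between the 2 hybridizations.

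A level is the log2 of the processed signal of a probe minus the 75th percentile of its array, and every difference is the level in crossbred minus that in Zebu testis. Each gene was represented by the probe whose signal, averaged over the arrays, was highest. It was detected if that probe exceeded the local background clearly (the mark "well above background" of the scanner software) on 1 array or both. It was called if the difference reached 1.5 (2.83-fold) in either direction and the brighter array carried this mark. Where 1 array lacked the mark, a bound is given, the brighter value against the higher of the dim value and the lowest value well above background. Folds given as "at least" are such bounds and hold for this processing only. Replicate spots of a probe gave an SD of 0.34 for a difference, over 5960 probes, which covers spotting and scanning only. This mark was carried by 72.0% of the crossbred spots and 74.3% of the Zebu spots. The tissue label was borne out by its markers, since all 4 spermatid, 5 Leydig cell and 3 Sertoli cell markers on the array were well above background on both arrays. In RNA of whole tissue, fewer cells of a type and less RNA per cell cannot be told apart.

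Interleukins are secreted signals by which leukocytes and many other cells instruct each other. They act through receptors built from a chain that binds the ligand and a chain that is often shared between several ligands, such as the common gamma chain IL2RG, the signal transducer IL6ST (gp130) or IL10RB. Most of these receptors pass the signal to JAK kinases and STAT transcription factors, whereas the IL1 and IL17 families act through adaptors, of which MYD88 and TRAF3IP2 are examples. In the testis, IL1A and IL6 are known as products of Sertoli cells, and resident macrophages keep the interstitial tissue in a state of immune tolerance.

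Among the probes whose values carry the results below, 7 are shown, each with the place the files give it on the build Btau_3.1. They are the probes of IL6, IL21, IL5 and IL36RN, the probe of IL20RB that passed the threshold, and both probes of IL18RAP.
IL6 (chr4:32760426-32760485, plus strand): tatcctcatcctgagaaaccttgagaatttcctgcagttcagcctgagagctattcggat
IL21 (chr17:36745157-36745306, minus strand): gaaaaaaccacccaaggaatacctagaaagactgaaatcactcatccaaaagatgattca
IL5 (chr7:20575241-20575300, plus strand): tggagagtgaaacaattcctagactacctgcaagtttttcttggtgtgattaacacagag
IL36RN (chr11:48461141-48461200, plus strand): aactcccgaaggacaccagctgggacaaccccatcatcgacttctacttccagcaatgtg
IL20RB (chr1:134279356-134279415, minus strand): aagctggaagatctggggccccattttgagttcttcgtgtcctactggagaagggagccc
IL18RAP, probe 1 (chr11:7444810-7444869, plus strand): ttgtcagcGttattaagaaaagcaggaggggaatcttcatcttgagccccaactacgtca
IL18RAP, probe 2 (chr11:7444815-7444874, plus strand): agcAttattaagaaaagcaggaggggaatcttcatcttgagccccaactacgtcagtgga
The place of the IL21 probe spans 150 bases for 60 bases of sequence, so that it runs over the junction of neighbouring exons. The pair of IL18RAP probes share a stretch of 55 bases, of which 54 are identical. The capital letter marks the base that differs, G4A, counted from 1 at the first base of the shared stretch, with the base of probe 1 first.

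Of the 77 genes, 50 (64.9%) were detected, as compared to 76.3% of all gene names. Both arrays were well above background for 43 genes, crossbred testis alone for 3, Zebu testis alone for 4, and neither for 27. A gene or probe of the first kind is called measured on both arrays below. The threshold was passed upward in crossbred testis by 6 genes, IL6, IL20RA, IL21, IL12RB2, IL36RN and IL5, which is 12% of those detected, against a background of 7.12% over all detected gene names. No interleukin gene passed it downward, where the background was 2.92%. The median difference of the detected genes, with a dim side at its bound, was 0.18, and that of all detected gene names was -0.05. The difference was above 0 in 27 of the detected genes and below 0 in 23. Among the 43 genes measured on both sides, 37 (86.0%) lay within a log2 difference of 1, and 15 (34.9%) within the SD between spots, as compared to 80.9% and 37.9% of all such gene names.

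**Figure D1:**
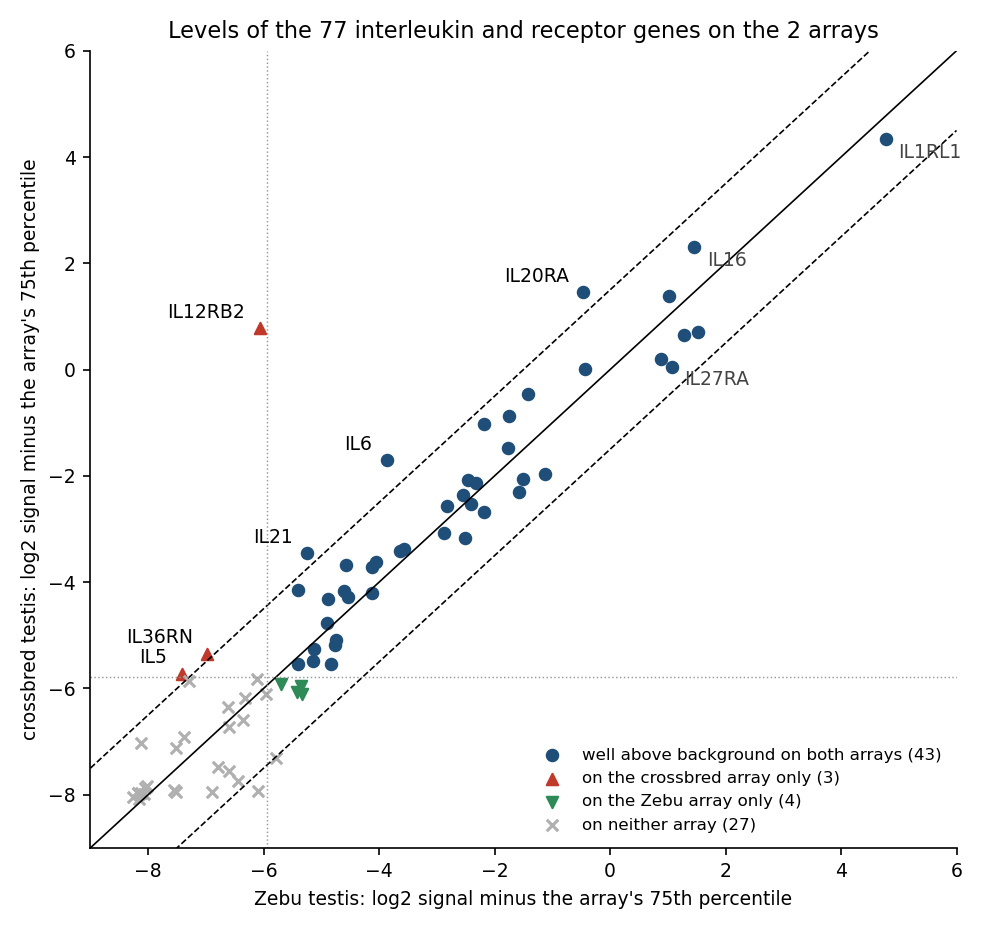
Level of each of the 77 genes in Zebu testis (x axis) and crossbred testis (y axis), as log2 signal minus the 75th percentile of the array. The solid line marks equal levels, dashed lines a log2 difference of 1.5, and dotted lines the lowest value well above background on each array. Of the 6 called genes, all above the upper dashed line, IL6, IL20RA and IL21 were measured on both arrays, and IL36RN and IL5 lie close to the dotted line.

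Of the 24 detected ligands, 4 (16.7%) were called higher in crossbred testis, as were 2 (7.69%) of the 26 detected receptor genes, against the background of 7.12%. The share of the receptors is thus close to the background. Of the called ligands, IL6 and IL21 were among the 19 ligands measured on both arrays. IL36RN and IL5 were called through the crossbred array alone, and their bounds of 0.59 and 0.22 lie below the threshold. The median difference was 0.22 for the ligands and -0.10 for the receptors. The 6 called genes were of unequal weight, since 3 were measured on both arrays and the other 3 only on the crossbred array.

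IL6, an inflammatory cytokine that Sertoli cells and macrophages can secrete, had a processed signal of 361 in crossbred and 84.2 in Zebu testis. Its levels were -1.70 and -3.87, a difference of 2.17 or 4.49-fold, and both arrays were well above background. Another probe of the same transcript was well above background on neither array, with signals of 14.7 and 4.63. A further probe that carries the IL6 name is paired by its accession with LOC517016 in the RefSeq table, and it too was well above background on neither array. The call of IL6 therefore rested on 1 of its probes and on 1 spot, and the mean over all probes of its name gave 1.33.

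The receptor of IL6 consists of IL6R, which binds the cytokine, and IL6ST, which carries the signal into the cell. IL6R had levels of -0.45 in crossbred and -1.43 in Zebu testis, a difference of 0.98. Its other probe gave -0.29, so that the probes of IL6R pointed in opposite directions and differed by 1.26, the widest range among the genes with several such probes. IL6ST had a difference of 0.19. One of its other probes, with a difference of -0.31, was the only interleukin spot within a bright patch of the crossbred array, a small area where the median difference of all spots was 1.1, and 2 of its 6 adjacent spots were past the threshold upward. Adjacent are the 6 nearest spots of the staggered grid, which are those above and below in the same column and the 4 in the rows between, while the next column of the same row lies farther off. A further probe of IL6ST was well above background in Zebu testis only, at least 2.22-fold lower in crossbred testis. No interleukin spot lay in a dark patch of that array, where the median difference of all spots was -1.01.

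IL12RB2, the chain of the IL12 receptor that marks T helper 1 and natural killer cells responsive to IL12, had the widest difference of the set. Its only probe (chr3:83639690-83639749, minus strand, from base 2891 of the transcript) had a signal of 2018 in the crossbred pool. In the Zebu pool the signal was 18.4, not well above background. By its bound it was thus 105-fold higher in crossbred testis, from a level of 0.78, while another background correction (normexp) gave a log2 difference of 4.64. The spot lay among other spots that were also brighter on the crossbred array. Of its 6 adjacent spots, 4 were past the threshold upward, with differences of 3.13, 5.19, 7.84 and 8.75, and the remaining pair gave -0.14 and -0.72. The median over the 18 nearest spots was 2.29. These spots belong to other genes and lie outside both patches named above. Over the whole array, 9.64% of the 3007 spots past the threshold upward had at least 2 such neighbours, and 1.66% had at least 4. The part of the place on the array in the value of IL12RB2 was not tested.

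The partners of IL12RB2 gave no difference of that size. IL12RB1, the other chain of the IL12 receptor, was well above background on neither array, with signals of 12.2 and 15.1. The same held for IL23R, which pairs with IL12RB1 to bind IL23 and whose probe lies 129 kb from that of IL12RB2 on chromosome 3, with signals of 4.70 and 4.25. The IL12 subunits gave 0.44 for IL12A and -0.33 for IL12B, and the IL23 subunit IL23A gave 0.35, with 0.07 on its other probe. STAT4, the transcription factor that IL12 activates, had levels of 4.04 and 2.52, a difference of 1.52 that just passed the threshold. None of its adjacent spots was past it.

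Further chains of this receptor family were measured on both arrays. IL27RA, the receptor of IL27, had a difference of -1.02, the lowest of all interleukin genes measured on both arrays, and its other probe gave -0.72. IL11RA, which binds IL11 and signals through IL6ST, gave -0.63 and -0.46 on its probes. IL27 and IL11 themselves were well above background on neither array.

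IL21, a cytokine of helper T cells that acts on B cells and natural killer cells, had a signal of 107 in crossbred and 32.5 in Zebu testis. The levels of -3.45 and -5.24 differ by 1.79, or 3.46-fold, and none of the 6 adjacent spots was past the threshold. IL21 has 1 probe, and its Zebu level lies close to -5.94, the lowest value well above background on that array. Its receptor IL21R gave 0.38, and the shared chain IL2RG gave -0.12. Of the 7 ligands of this group, IL13 was the other one detected, with 0.56, whereas IL2, IL4, IL7, IL9 and IL15 were well above background on neither array. That IL13 probe is placed on the plus strand, opposite to the other IL13 probes, and the detection of IL13 rests on it alone. The other IL13 probes are placed on the minus strand, gave -0.44 and 0.09, and were well above background on neither array.

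All 8 receptor genes of the common gamma chain group were measured on both arrays, and none passed the threshold. Among so few genes this is close to the backgrounds of 7.12% upward and 2.92% downward over all detected gene names. IL7R, the receptor chain that binds IL7, came closest to the threshold with levels of -4.14 and -5.40, a difference of 1.26. IL13RA2, a decoy for IL13, followed with 1.16. The signalling chains of the receptor for IL4 and IL13 lay on the other side of 0, with -0.68 for IL13RA1 and -0.56 for IL4R. The 3 probes of IL4R measured on both arrays ran from -0.63 to -0.56.

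IL5, the growth factor of eosinophils, had a signal of 22.2 in the crossbred pool and of 7.20 in the Zebu pool, the latter not well above background. Since the crossbred value was itself close to the lowest signal that counts as well above background, the bound is no more than 1.16-fold higher. IL3, the other ligand of the common beta chain group, was well above background on neither array, and so was the shared chain CSF2RB. The same held for a transcript that another gene name describes as IL5RA-like, with levels of -5.57 and -8.00, a difference of 2.42.

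IL20RA, which forms the receptor for IL19, IL20 and IL24 together with IL20RB, had a signal of 3237 in crossbred and 895 in Zebu testis. Both arrays were well above background, with levels of 1.46 and -0.46. The difference of 1.92, or 3.79-fold, came from 1 probe (chr9:77272613-77272672, minus strand, from base 1754 of the transcript) in a spot with no adjacent spot past the threshold. IL20RB gave 0.41 on its probe with the highest mean signal. Its other probe, shown above, was well above background in crossbred testis only, with signals of 26.8 and 7.43, at least 1.40-fold higher. The ligands IL19, IL20 and IL24 were well above background on neither array.

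The remaining receptor chains of the IL10 family included values on both sides of 0. IL10RB, which serves as the shared chain for IL10, IL22 and the type III interferons, gave -0.81, and its 3 probes ran from -0.84 to -0.54. IL10RA, the chain that binds IL10, gave 0.89 on the probe with the highest mean signal. Its other probes, with -1.54 and -0.44, counted as well above background on neither array. Of the 2 spots of the probe with -1.54, 1 carried this mark in Zebu testis. The ligands IL10 and IL22 gave 0.27 and 0.19. IL22RA1, a partner of both IL20RB and IL10RB, was at least 1.28-fold lower in crossbred testis, where it was not well above background.

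**Figure D2:**
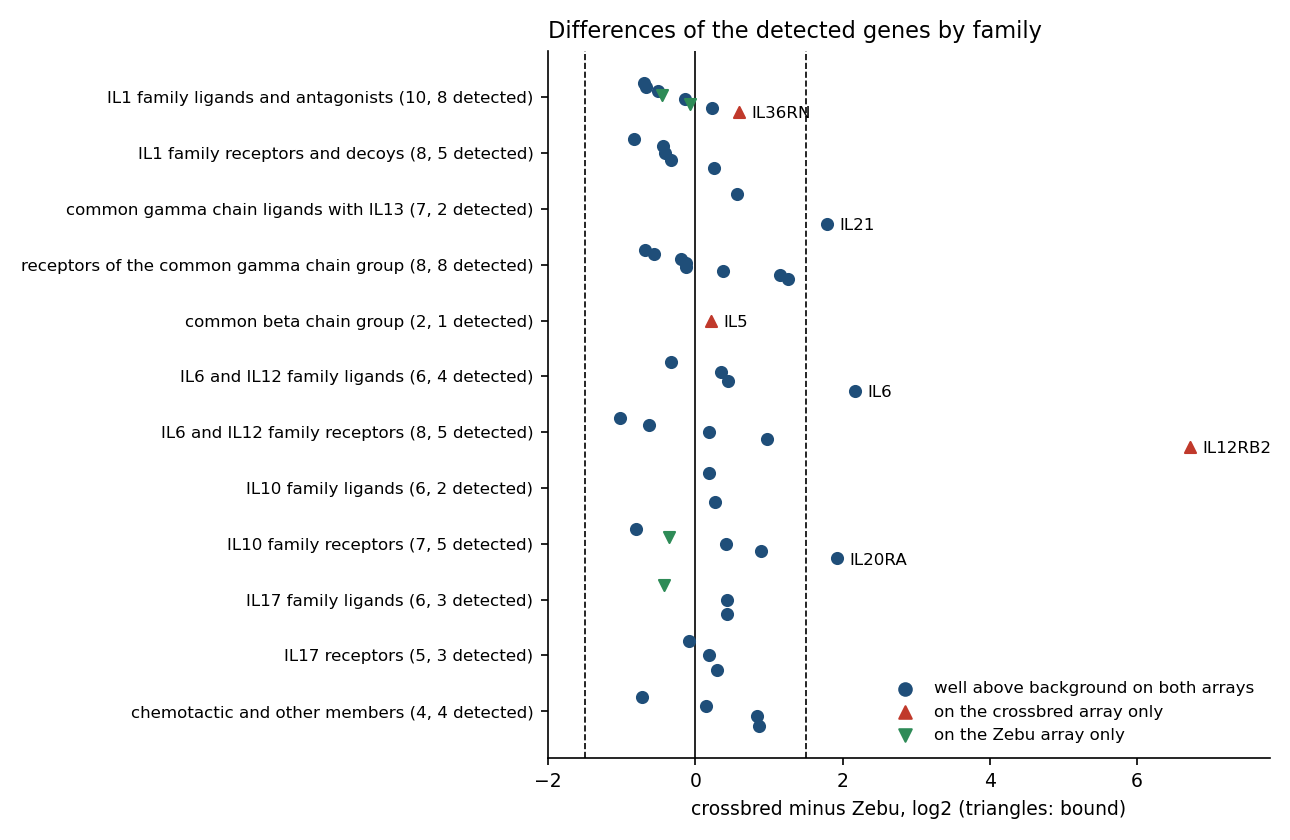
Difference of each of the 50 detected genes (x axis, crossbred minus Zebu, log2), by family (rows, with the number of genes and of detected genes). Circles are genes measured on both arrays, triangles are bounds for genes well above background on 1 of them, and dashed lines mark the threshold of 1.5. IL6, IL20RA, IL21 and IL12RB2 lie beyond the dashed line, while IL36RN and IL5 were called on their measured difference but their bounds of 0.59 and 0.22 lie within it.

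IL36RN, an antagonist that blocks the IL36 receptor, had a signal of 28.8 in the crossbred pool. The Zebu signal of 9.81 was not well above background, and by its bound IL36RN was 1.51-fold higher in crossbred testis. The IL36 receptor IL1RL2 was well above background on neither array. Among the agonists, IL36A gave 0.22, IL36G was well above background in Zebu testis only, and IL36B on neither array.

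The other detected ligands of the IL1 family had differences at or below 0 on their probe with the highest mean signal, and IL37 was well above background on neither array. A transcript described as IL1F7, a name of IL37, was measured on both arrays, with -0.39. IL1A, a product of Sertoli cells, gave -0.69, IL18 gave -0.67 and the receptor antagonist IL1RN gave -0.14. IL1B gave -0.50 on the probe with the highest mean signal, but 0.37 and 0.27 on a pair of probes further upstream in its transcript. IL33 was well above background in Zebu testis only, at least 1.36-fold lower in crossbred testis.

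Of the 8 IL1 family receptors and decoys, 5 were detected and none was called. With so few genes, a count of none is close to the backgrounds of 7.12% upward and 2.92% downward over all detected gene names. IL18BP, which captures IL18, gave -0.84, IL1RAP, the shared chain of this family, -0.41, IL1R1 -0.33 and the decoy IL1R2 0.25. Another IL1R1 probe pointed the other way, with signals of 29.0 and 13.3 and a difference of 1.19. It was well above background in crossbred testis only, at least 1.51-fold higher. IL18RAP, the chain that completes the IL18 receptor, differed between its probes. Probe 1 had signals of 7.38 and 22.4 and was well above background on neither array. Probe 2, which shares nearly all of its bases with it, had 5.74 and 25.5, was well above background in Zebu testis only and passed the threshold downward, at least 1.14-fold lower. It was the only interleukin probe called lower, 1 of 75 detected probes against a background of 2.99% over all detected probes, and 8 probes were called higher against 6.14%.

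IL1RL1, the receptor of IL33, had levels of 4.34 in crossbred and 4.77 in Zebu testis, a difference of -0.44. A neighbouring probe gave -0.22 at levels of 2.68 and 2.90, whereas the remaining probe, nearer the start of the transcript, was well above background on neither array, with signals of 18.0 and 13.7. The neighbouring probe shares a run of 16 bases with 12 probes of 6 other gene names, each of which was measured on both arrays, with a median difference of -0.26. Of the 134 interleukin probes, 18 (13.4%) share such a run with a probe of another name, as do 12.8% of all probes, and IL1RL1 had the only one that shares it with 10 or more.

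The detected genes of the IL17 family differed little on their probe with the highest mean signal. IL17F and IL17D both gave 0.43, IL17B was at least 1.34-fold lower in crossbred testis, where it was not well above background, and IL17A, IL17C and IL25 were well above background on neither array. Among the receptors, IL17RE gave 0.30, IL17RC 0.18 and IL17RB -0.09. IL17RA and IL17RD were well above background on neither array. Transcripts that other gene names describe as IL17RA and IL25-like were measured on both arrays, with -0.12 and 0.72. Those described as IL17RE-like, IL17RC and IL17D-like, also measured on both, gave 0.75, 0.01 and 0.28. A transcript described as IL17RE was well above background in Zebu testis only. Its difference was -1.23 and its bound -0.27, opposite in sign to the 0.30 of the IL17RE probe.

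Among the chemotactic and other interleukins, IL16, a chemoattractant for cells that bear CD4, had signals of 5788 and 3393, a difference of 0.84. Another of its probes passed the threshold with signals of 110 and 38.9, a difference of 1.57, and 2 of its 6 adjacent spots were past the threshold as well. A further IL16 probe was well above background on neither array. IL34, a ligand of the macrophage growth factor receptor CSF1R, gave 0.87 and 0.29 on its probes. IL32 gave -0.72, and the neutrophil attractant IL8 gave 0.14.

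Where several probes of a gene were measured on both arrays, they mostly gave like values. This was so for 16 genes, of which 13 had all such probes in the same direction and 12 had them within 0.5 of each other, with a median range of 0.25. The exceptions in direction were IL1B, IL6R and IL6ST. Of the 6 called genes, IL6 was the only one with more than 1 probe, so that the others have no independent sequence behind their value.

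**Figure D3:**
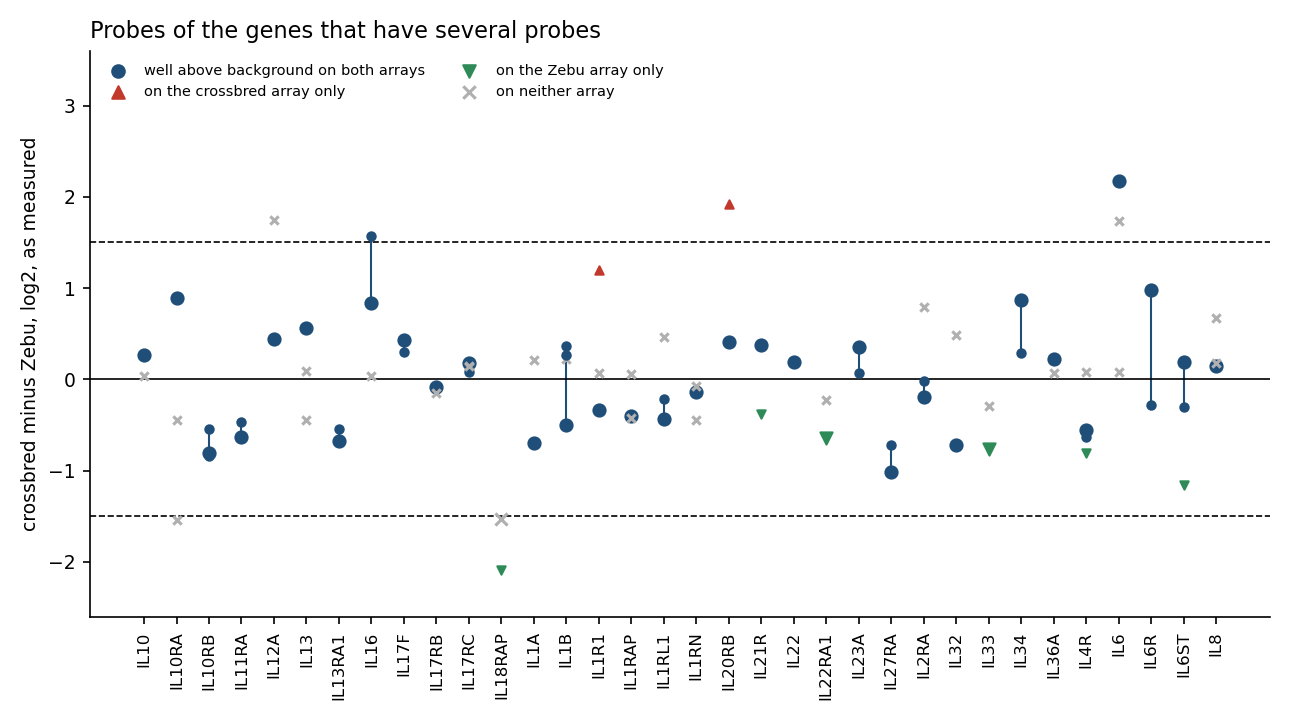
Difference of every probe (y axis, crossbred minus Zebu, log2, as measured) for the 34 genes with several probes of which at least 1 was well above background. Large symbols are the probe with the highest mean signal, vertical lines join probes measured on both arrays, and dashed lines mark the threshold of 1.5. The lines are longest for IL6R, IL1B and IL16, and all the probes of IL10RB and IL27RA lie below 0.

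For the other 5 called spots the surroundings were as follows. No adjacent spot was past the threshold upward for IL6, IL20RA, IL21, IL36RN or IL5. The median of the adjacent spots was 4.16 for IL12RB2 and ran from -0.71 for IL6 to 0.28 for IL21 among these 5. At the IL6 spot, 2 adjacent spots were past the threshold downward, opposite to IL6 itself, with -1.60 and -5.31. The spots 1 column away in the row of IL6, which are not among the adjacent 6, were past it upward on either side, the lower of them with 1.58, as was 1 of those beside IL20RA, with 1.58. Farther from IL20RA, 3 to 4 columns away, lay spots with differences of up to 6.88. Over the 18 nearest spots the median was -0.25 for IL6, and 0.10 for IL20RA over 17.

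**Figure D4:**
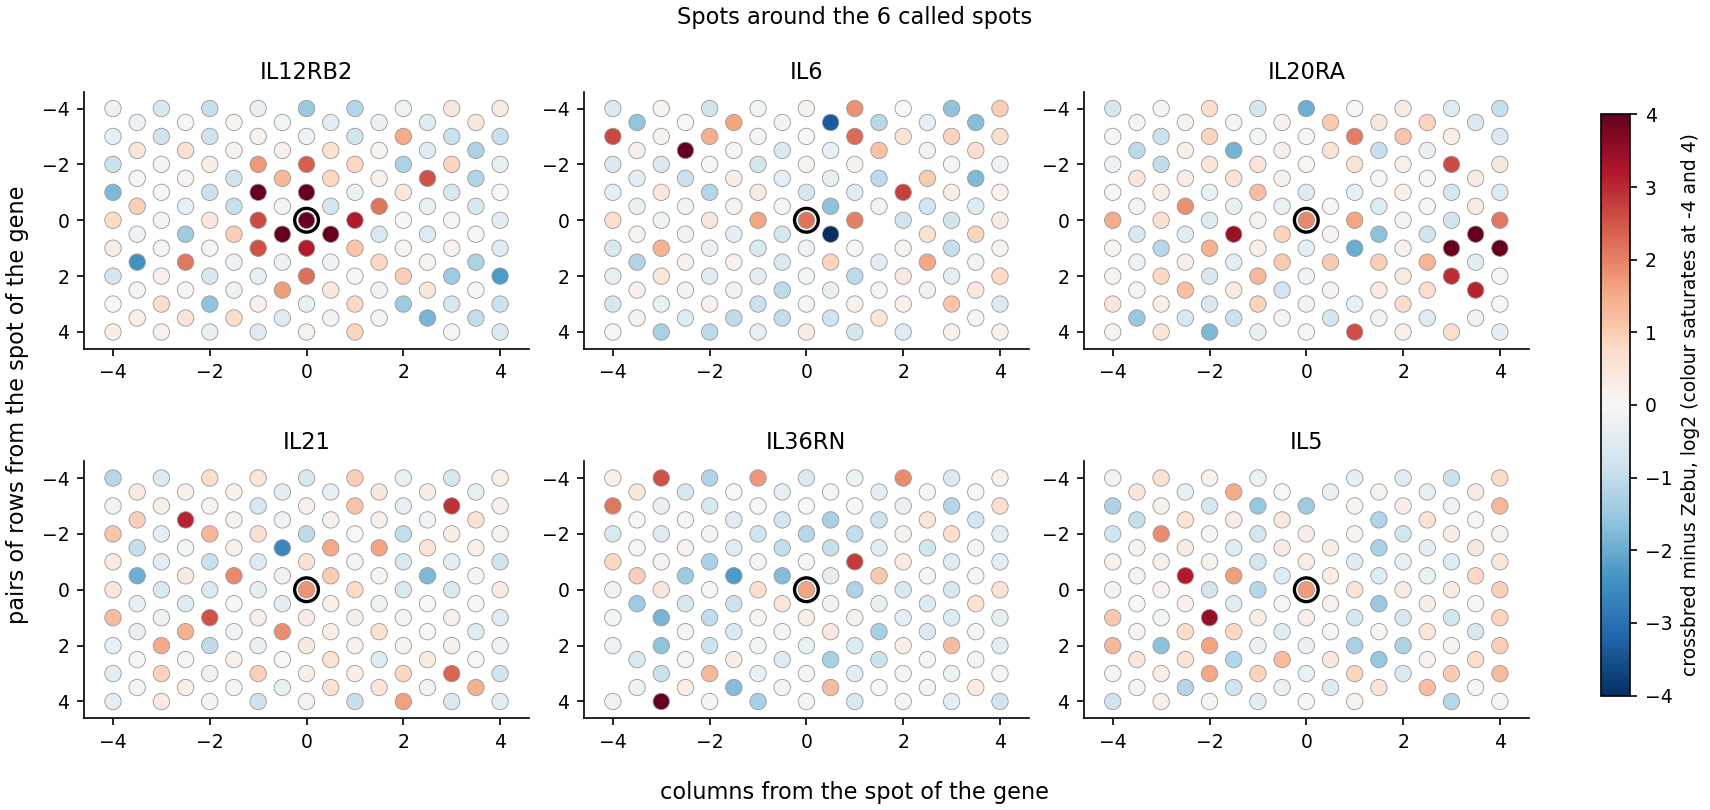
Spots around the spot of each of the 6 called genes (circled), placed by column (x axis) and pair of rows (y axis) from that spot and coloured by the log2 difference of crossbred minus Zebu, red where the crossbred array was brighter. Dark red spots of other genes adjoin the circled spot of IL12RB2, and in the panel of IL20RA a group of such spots lies 3 to 4 columns away from it. Gaps are control or outlier spots.

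Beyond the interleukins themselves, 29 genes of their signalling routes were on the array, and 27 were detected. STAT4 was called higher and none was called lower, against backgrounds of 7.12% and 2.92% over all detected gene names. The median difference was -0.31, and of the 26 genes measured on both arrays 21 lay below 0 and 5 above. Over all detected gene names the median was -0.05, with 13133 below 0 and 11618 above. The lowest values were -1.33 for SOCS2 and -1.12 for SOCS1, inhibitors of cytokine signalling, and -1.19 for CASP1, the protease that activates IL1B and IL18. The shared kinases gave -0.32 for JAK1, -0.13 for JAK2, 0.20 for TYK2 and -0.98 for JAK3, the partner of IL2RG.

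Markers of leukocytes did not move in a common direction. The backgrounds for calls of markers are 7.12% upward and 2.92% downward over all detected gene names. All 9 T cell markers on the array were measured in both pools and none was called, with a median of -0.56, with 8 below 0. A summed level is the log2 of the sum of the unlogged levels of all markers of a type, so it follows the brightest markers. For T cells it was 2.76 in crossbred and 3.08 in Zebu testis. Of the 5 natural killer and cytotoxic cell markers, GZMB was 6.25-fold higher in crossbred testis, NKG7 gave -0.60 and PRF1 -0.72, and GZMA and NCR1 were well above background on neither array. The summed level was 0.26 and 0.23.

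All 6 macrophage markers on the array were detected, and AIF1 and MARCO were called higher, by 3.86-fold and 3.51-fold, while CD14 gave 0.56, CD68 0.20 and CSF1R -0.19, and CD163 was well above background in Zebu testis only. The summed level was 4.17 in crossbred and 3.22 in Zebu testis. Of the 4 neutrophil markers 3 were detected, with S100A12 being 7.54-fold higher, CSF3R and S100A8 at 0.57 and 0.58, and S100A9 well above background on neither array. The summed level of 1.61 and -1.03 was mostly that of S100A12, with levels of 1.54 and -1.37. All 4 B cell markers were detected, with a summed level of 0.95 and 0.21, and MS4A1 was at least 20.4-fold higher in a spot with 2 adjacent spots past the threshold upward. Markers of cells that belong to the testis were also called, with TNP2 and ACRV1 of spermatids higher by 3.35-fold and 3.11-fold, and CYP17A1 and HSD3B1 of Leydig cells lower by 3.19-fold and 3.41-fold in crossbred testis. The 3 Sertoli cell markers lay between -1.39 and -0.45. The part of any of these cells in the interleukin values was not tested.

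Across 16 other ways of processing the same arrays, the calls of IL6 and IL20RA were the ones kept most often. IL6 was not called with the mean over all probes of its name, and IL20RA was not called at a log2 threshold of 2. IL12RB2 was lost where both arrays had to be well above background and where spots with neighbours past the threshold were left out. IL21 was lost at a threshold of 2 and with another background correction (normexp), and IL36RN and IL5 were lost under these and where both arrays had to be well above background. Among the called genes, a change in the choice of probe could alter IL6 alone, since the others have no other probe. IL20RA was measured on both arrays, lay in no patch, had no adjacent spot past the threshold and shares no run of bases. Filters on background and removals of spots or probes could thus not take its value away. The number of settings that kept a call therefore does not rank these genes by robustness.

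**Figure D5:**
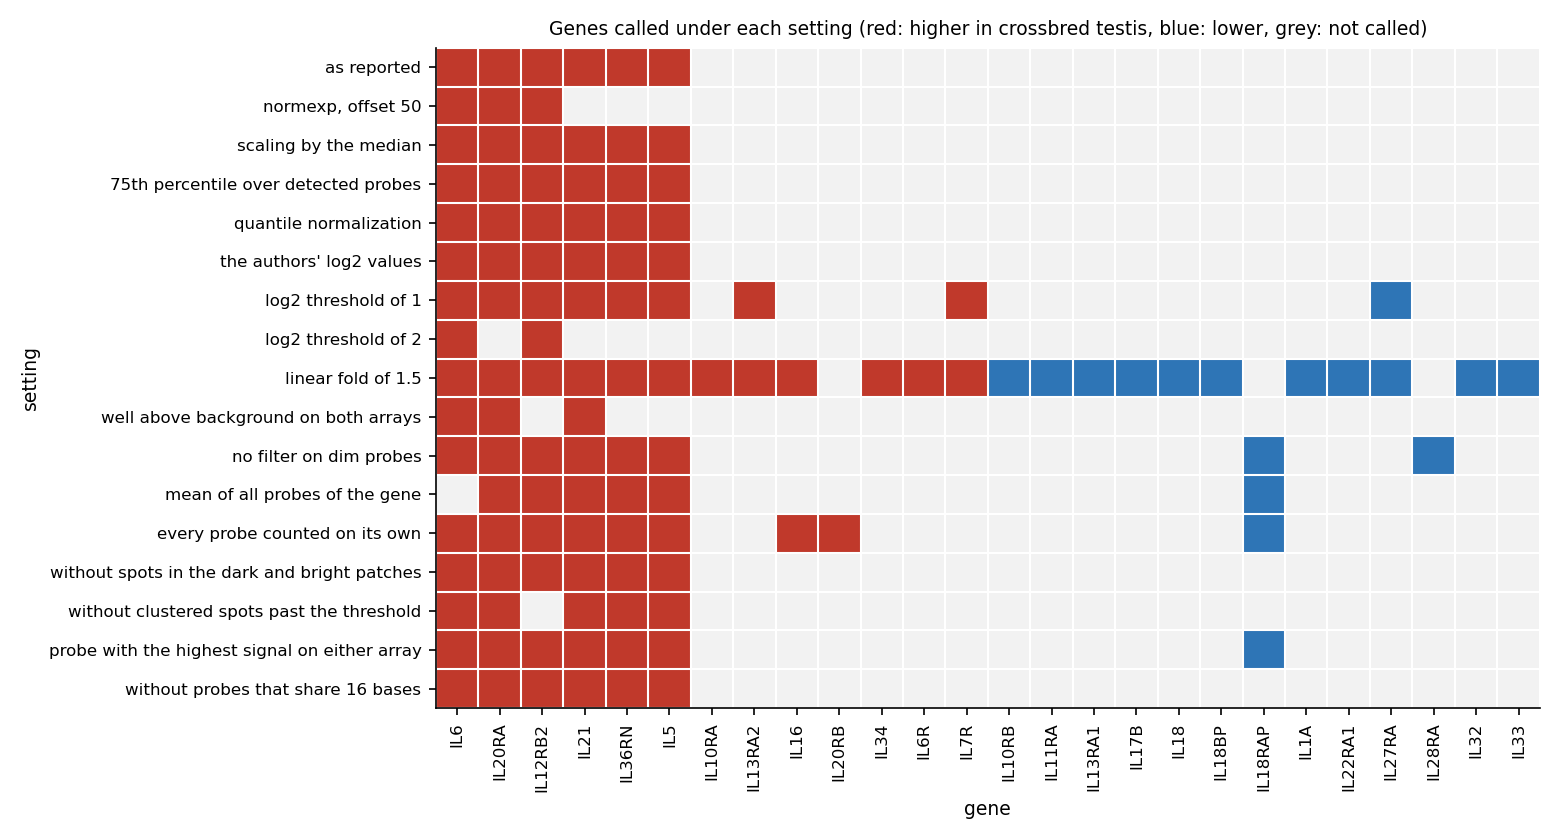
Genes (x axis) called higher (red) or lower (blue) in crossbred testis under the reported setting and 16 alternatives (y axis). IL6 and IL20RA were called in 15 of the 16 alternatives, IL12RB2 and IL21 in 14, and IL36RN and IL5 in 13. Not every alternative could change the call of every gene, so these counts do not rank the genes.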

How the data were processed

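Pooled testis RNA of 3 crossbred and 3 Zebu bulls was measured on 1 one-colour Agilent array per group, and this number of arrays sets the limit of precision. As the main value of a spot, the authors deposited its processed signal, an intensity that, per the file headers, Agilent Feature Extraction 11.5.1.1 had background-subtracted and that was not normalized between arrays. The mean spot and median background intensities were deposited untreated. The authors also deposited log2 values, shifted by the 75th percentile of each array. The values recomputed here correlated with them at 0.9994 and 0.9998 across probes.

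Control spots and 13 outlier spots did not enter, and saturation did not occur. Log2 signals of replicate spots were averaged, and each array was shifted by its 75th percentile over non-control probes (1176 in signal for crossbred, 1233 for Zebu). A probe with several spots counted as well above background on an array only where all of these spots did. The probe of highest mean log2 signal stood for its gene. A dim array gave a bound, the brighter value against the higher of the dim value and the lowest value well above background. No test was possible.

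Members, gene lists and checks were chosen with earlier results of these data known. Named with values are members past the threshold on any probe, members in a patch, their partner chains, and up to 3 bright members of each family. Other members named were chosen after their values were seen. In the RefSeq table, 74 of the 77 names were found as symbols and 2 as synonyms, and 1, IL17C, was not found. Probe positions are those of the files (Btau_3.1), and the printed sequences come from the scanner files. Python 3.11.15, numpy 2.4.6, pandas 2.3.3, R 4.3.3 and limma 3.58.1 (normexp) were used, and the steps were tested on simulated data. Alternatives were background correction, scaling, threshold, filter on dim probes, choice of probe and removal of spots.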

Additional observations from a re-analysis of the deposited data

How the results depend on the processing

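The number of interleukin genes called higher was 6 and stayed within 1.5 times of it in 12 of 16 alternatives. With normexp background correction with an offset of 50 it was 3, IL6, IL20RA and IL12RB2. This is 5.88% of those detected, against 4.16% of all detected gene names. Where both arrays had to be well above background it was 3 (IL6, IL20RA and IL21), or 6.98% against 6.32% of all such gene names. At a log2 threshold of 2 it was 2 (IL6 and IL12RB2), or 4% against 3.49%. At a linear fold of 1.5 it was 12, or 24% of those detected, against 21.4% of all detected gene names. The number called lower, 0 as reported, was 1 at a log2 threshold of 1 (IL27RA, 2% against 8.87%) and 11 at a linear fold of 1.5 (22%, against 22.2%). With no filter on dim probes it was 2 (IL18RAP and IL28RA), or 2.60% against 2.83%. It was 1, IL18RAP, with the mean of all probes (1.96% against 2.65%) and with every probe on its own (1.33% against 2.99%). The same held with the probe of the highest signal on either array (1.96% against 3.09%). The number detected was 77 without a filter, since every gene then enters. The median difference ran from 0 to 0.19 over the alternatives. None of the genes with a called probe changed direction. With normexp, IL21 gave 0.79, IL5 0.39, IL36RN 0.37 and IL12RB2 4.64, and the cause was not tested. For IL36RN and IL12RB2 these values lie below the reported bounds of 0.59 and 6.72, so the bounds are not limits under other processing. Without spots past the threshold that have at least 2 such adjacent spots, IL12RB2 had no value left. In that setting 5 genes were called higher, or 10.2% against 6.57%. The choice of the probe by the highest signal on either array and the removal of probes with shared runs were chosen after seeing the data. No paired analysis was possible because each group has 1 array, for which reason no array could be left out.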

Other observations

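A further 51 gene names carry the word interleukin in the description of the array without being named IL and a digit, and were looked up after the values of the set were seen. Of these, 25 were detected, beside 76.3% of all gene names. None was called higher and 1 was called lower, against backgrounds of 7.12% and 2.92% over all detected gene names, with no test possible. The name called lower is described as IL11-like and was well above background in Zebu testis only. Its difference was -1.58 and its bound -0.43. CXCR2, a receptor for IL8, was higher in crossbred testis by at least 0.87 on the log2 scale, with Zebu testis not well above background, and its difference did not pass the threshold. The kinases IRAK1, IRAK2 and IRAK4, which act below the IL1 receptors, gave -0.19, -0.26 and 0.10, and IRAK3, an inhibitor of this route, gave -0.77. A further transcript described as IL11RA gave -0.77, beside -0.63 and -0.46 for the probes that carry the name. Transcripts described as IL17RA, IL25-like and IL1F7 were measured on both arrays, as given above, although IL17RA, IL25 and IL37 were not detected. Those described as IL9-like, IL19-like and IL12RB1 were well above background on neither array.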
